A study of Mus musculus with 3 samples.

Results

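The genes described here are 49 chaperones, heat shock genes and genes of the unfolded protein response, taken by symbol from the 55536 gene identifiers of the deposited gene tables. All 49 were found. They were measured in regulatory T cells (Tregs) of the mouse, a CD4 T cell type that holds immune responses in check, which the labels call inflammation-experienced and derive from activated Tregs at 12 weeks of age. Polyadenylated RNA of 1 biosample from 1 donor gave 3 libraries, which the labels number as technical replicates of a single biological replicate. They form 1 group, and nothing in the data measures variation between mice. Strain, genotype, the inflammatory treatment and the sorting gate are not given in the sources at hand. Without an unexposed group, the comparisons are between genes, between gene groups and between the 3 libraries.

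Chaperones bind unfolded or newly made proteins and keep them from aggregating until they fold. In the cytosol, heat shock factor 1 (Hsf1) is released from chaperones when unfolded proteins accumulate and switches on the inducible chaperone genes through heat shock elements in their promoters. In the endoplasmic reticulum, the sensors Atf6, Ire1 and Perk start the unfolded protein response, which raises the chaperones of that compartment through the factors Atf6, Xbp1 and Atf4. T cells enlarge both systems when they are activated, and heat shock genes also respond to warming or dissociation of tissue.

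The members were grouped by role. The inducible cytosolic group holds 14 genes, the constitutive cytosolic group 13, the endoplasmic reticulum group 11, the regulators 6, the mitochondrial group 3, and the Hsp70 genes known for testis expression 2. The sequences that bear on these roles are those before the start sites. RefSeq promoter windows (build GRCm38.p6, 250 bases before to 50 after the start site) were matched by symbol for 42 of the 49 members. Hspa8, Hsp90ab1, Cct4, Hsp90aa1, Hspa9, Hsf1 and Atf6 had no window and were not searched. A heat shock element was searched as GAANNTTC on both strands, also in the reversed order of its units, and a longer form as GAANNTTC followed after 2 bases by GAA, or the same with the units reversed. The longer form contains the shorter one. The endoplasmic reticulum stress element was searched as CCAAT and CCACG separated by 9 bases, on both strands.

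The inducible Hsp70 genes Hspa1a and Hspa1b lie side by side on chromosome 17 and were the members that differed most between libraries, so the 250 bases before each start site are shown, with the heat shock element in capitals. They come from chr17:34972157-34972406 for Hspa1a and chr17:34959239-34959488 for Hspa1b, both on the minus strand of GRCm38.p6. The genes themselves (identifiers ENSMUSG00000091971.3 and ENSMUSG00000090877.3) span bases 34969190 to 34972156 and 34956436 to 34959238 of mm10.
Hspa1a: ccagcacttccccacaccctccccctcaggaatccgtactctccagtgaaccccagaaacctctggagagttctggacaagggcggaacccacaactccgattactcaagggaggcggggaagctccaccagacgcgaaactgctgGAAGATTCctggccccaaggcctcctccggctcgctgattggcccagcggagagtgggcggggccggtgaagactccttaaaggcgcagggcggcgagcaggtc
Hspa1b: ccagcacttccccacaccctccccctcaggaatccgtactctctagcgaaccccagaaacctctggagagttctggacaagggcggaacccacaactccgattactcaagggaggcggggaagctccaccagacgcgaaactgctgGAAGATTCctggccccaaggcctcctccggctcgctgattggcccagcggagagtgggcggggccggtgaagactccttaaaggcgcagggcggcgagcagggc
These 250 bases were identical at 247 positions. Counted from 1 at the first base shown, with the Hspa1a base first, the differences are C44T, T47C and T249G. Both promoters hold 1 match, at the same place, centred 100.5 bases before the start site.

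The short stretches below carry the longer heat shock element, in capitals. Those of Hspd1 and Hspe1, which encode the mitochondrial chaperonin and its lid, are shown because the genes stand head to head on chromosome 1 and read 1 element from opposite strands.
Hspd1 (chr1:55088051-55088079, minus strand): gccTTCCGGAAGGTTCTAGAAcggaccgt
Hspe1 (chr1:55088056-55088084, plus strand): ccgTTCTAGAACCTTCCGGAAggccccgc
Dnajb6 (chr5:29735844-29735872, plus strand): agctccgaGAATCTTCCGGAAcgctagac
Hspd1 has 2 windows in the table. The start site of the one that holds the element lies 216 bases from that of Hspe1, and the stretches shown share 24 bases of the genome. The capitals hold overlapping matches of the longer element, centred 138 and 133 bases before this start of Hspd1 and 83 and 78 bases before that of Hspe1.

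The endoplasmic reticulum stress element, in capitals below, was found in 6 of the 11 endoplasmic reticulum members and in no other member with a window.
Hspa5 (chr2:34772020-34772048, plus strand): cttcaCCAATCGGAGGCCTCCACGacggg
Hsp90b1 (chr10:86705528-86705556, minus strand): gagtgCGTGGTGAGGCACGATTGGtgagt
Dnajc3 (chr14:118937822-118937850, plus strand): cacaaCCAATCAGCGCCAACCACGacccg
Pdia6 (chr12:17266486-17266514, plus strand): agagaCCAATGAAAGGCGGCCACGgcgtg
Calr (chr8:84847070-84847098, minus strand): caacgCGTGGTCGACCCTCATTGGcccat
Canx (chr11:50325795-50325823, minus strand): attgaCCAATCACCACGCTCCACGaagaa
In Hsp90b1 and Calr the element reads on the opposite strand to the gene. Hsp90b1 holds a second match, not shown, centred 203 bases before its start site.

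Across all 27025 genes with a window, the stress element was present in 37, or 0.137%, and in 16 of the 8756 genes detected here, or 0.183%. The longer heat shock element was present in 0.662% of all genes and in 5 members, which were Chordc1, Hsph1, Dnajb6, Hspd1 and Hspe1. In Chordc1 and Hsph1 it lay at or after the start site and is not shown. The short heat shock element was common, at 17.0% of all genes and 14.4% of detected genes. Of the members, 10 of 13 inducible cytosolic genes with a window held it, against 3 of 10 constitutive cytosolic genes, both mitochondrial genes with a window and none of the 11 endoplasmic reticulum genes. Among the inducible genes, Dnajb1, Ahsa1 and Stip1 had no match in this window. A CCAAT box stood in all 11 endoplasmic reticulum windows and in 41.1% of all genes. These matches are letters in a window and were not tested for factor binding.

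**Figure D1:**
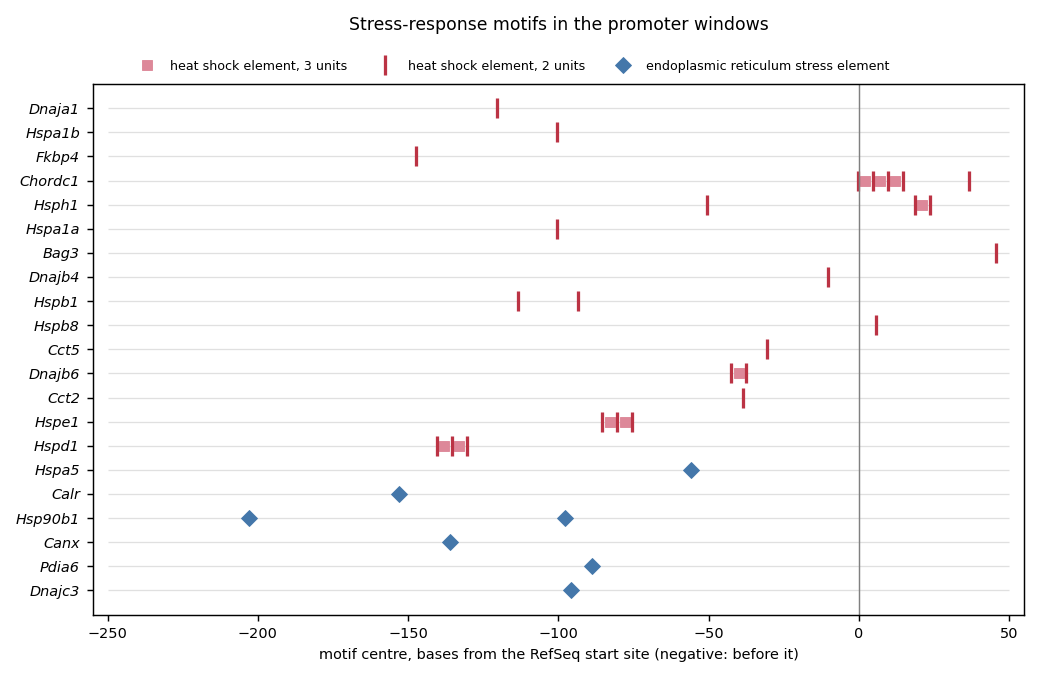
Centres of the short and long heat shock element and of the endoplasmic reticulum stress element along the promoter window of each member that holds 1, in bases from the RefSeq start site (1 window per gene is drawn). Red bars and squares lie in cytosolic and mitochondrial genes, and blue diamonds lie in 6 endoplasmic reticulum genes, between 203 and 56 bases before the start.

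The libraries were deep, with 35592206, 31611422 and 37728241 expected counts on genes in libraries 1, 2 and 3. The members took 1.10%, 1.14% and 1.13% of them. The markers of the labelled cell type were present in every library: all 8 T cell and Treg markers were detected, with a summed level of 6472 to 6739 TPM (a level per transcript length, scaled to 1 total in every library), and Foxp3, which defines the lineage, stood at 97.6 ± 1.04 TPM (SD over libraries, n = 3 for this and all later values). Library 3 stood apart in its salivary gland transcripts. There, 8 salivary gland markers took 3.38% of counts, against 2.97e-04% and 6.89e-04% in libraries 1 and 2, and summed to 56810 TPM, which pulls down the TPM of all other genes there. B cell markers summed to 66.6, 68.8 and 67.6 TPM, with Cd79b at 30.4 ± 1.49 and Cd79a at 16.7 ± 1.68 TPM. Cd22 and Ms4a1, both named after their values were seen, went opposite ways in library 3. Cd22 was at 1.53-fold of the other libraries (95% counting interval 1.41 to 1.66) and Ms4a1 at 0.592-fold (0.513 to 0.684). By the test described below, 2 of the 6 B cell markers were above both other libraries in library 3 and 1 was below both. The shares over all genes tested were 11.8% and 9.49%. Myeloid markers were scarce, with sums of 2.78, 2.00 and 5.99 TPM and Cd14, named after its values were seen, at 0 in every library. Plasma cell markers summed to 48.8, 43.9 and 54.6 TPM, mostly Prdm1 at 23.3 ± 2.60 and Irf4 at 19.9 ± 2.35 TPM. Jchain, also named after its values were seen, was at 1.96, 0 and 0.34 TPM. Of 6 plasma cell markers tested, 3 were above both other libraries in library 3 and 1 in library 1. Epithelial markers summed to 36.5, 27.3 and 45.4 TPM, mostly Epcam.

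Chaperone transcripts were among the abundant transcripts of these cells. In bulk RNA, more cells that express a gene and more RNA of it per cell cannot be told apart. A gene was taken as detected if each library had a TPM of 1 or more. By this, 47 of the 49 members were detected, and 31 had a mean of at least 100 TPM. Among all 12883 detected genes, 15.4% reached that level, and their median was 24.1 TPM. The median over the 49 members was 130 TPM. The members not detected were Hspb8, a small heat shock protein of muscle, with 2, 0 and 7 counts, and Hspa1l, a testis Hsp70, with 3.3, 20.5 and 4.4 counts. Of the 2423 windows of 50 bases in the leading Hspa1l transcript, 71.4% also lie in an antisense gene at the locus, Gm10501, so even these counts are uncertain. Hspa2, the other testis-type Hsp70, was detected at 3.13, 2.99 and 2.87 TPM on 171, 144 and 171 counts, and its libraries did not pass the test of a difference (adjusted p = 0.973 by the chi-square test with edgeR scaling described below).

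The constitutive cytosolic chaperones stood highest, with a median of 189 TPM. Hspa8, the constitutive Hsp70 that folds new proteins and uncoats clathrin vesicles, led all members with 1758, 1991 and 1673 TPM. It took 14.1%, 15.0% and 13.7% of all member counts. Hsp90ab1, the constitutive cytosolic Hsp90, followed with 616, 648 and 651 TPM. Both stayed above every other member of the group in each library. Dnaja2, a J-domain partner of Hsp70, stood at 189 ± 8.22 TPM, and Bag1, a nucleotide exchange factor, at 177 ± 10.5 TPM. Dnajb6, a J-domain protein that blocks aggregation, stood at 149.6 ± 6.0 TPM. Hspa4, an Hsp110-type exchange factor, was the lowest of the group at 99.7 ± 4.0 TPM.

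The subunits of the cytosolic chaperonin, the ring complex that folds actin and tubulin, kept close together. Each ring uses every subunit, and 7 of the subunits are members. Their mean levels ran from 142 TPM for Cct2 to 304.5 TPM for Cct8, a span of 2.14-fold, around a median of 241 TPM. Cct3, Cct7 and Cct5 stood at 276 ± 19.7, 246 ± 19.6 and 241 ± 3.74 TPM, and Cct4 at 179 ± 4.43 TPM. Tcp1, the founding subunit, stood at 152 ± 11.5 TPM and did not separate from Cct2, with a difference of -0.09 ± 0.07 in log2(TPM + 1). Cct6a, a further subunit from a list of pathway genes that are not members, lay inside the same span at 202 ± 11.5 TPM, while its testis relative Cct6b stood at 0.553 ± 0.206 TPM.

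The inducible cytosolic group covered the widest span. Its median was 106 TPM, and the group median of log2(TPM + 1) minus that of the constitutive group was -0.98, -0.79 and -0.80 in the 3 libraries. The difference over the mean levels of the genes was -0.83, of 1 sign in every library and larger than 0.11, the SD of the library values. Hsp90aa1, the inducible Hsp90, was its most abundant gene with 348, 334 and 366 TPM. Dnaja1, a J-domain protein, stood at 277, 319 and 251 TPM. The Hsp90 helpers kept to a narrow band: Stip1, which hands clients from Hsp70 to Hsp90, at 153 ± 8.94 TPM, Ahsa1, which speeds the Hsp90 ATPase, at 151 ± 10.3 TPM, Fkbp4, which serves steroid receptors, at 129 ± 6.63 TPM, and Chordc1 at 117 ± 5.99 TPM. Hsph1, the heat-inducible Hsp110, stood at 60.5 ± 4.87 TPM. At the low end were Bag3, which links Hsp70 to autophagy, at 10.2 ± 1.54 TPM, Dnajb4 at 9.46 ± 1.82 TPM and the small heat shock protein Hspb1 at 4.35 ± 1.30 TPM. The group therefore holds both transcripts as high as the constitutive chaperones and transcripts close to the limit of detection.

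The endoplasmic reticulum group had a median of 146 TPM. Over the mean levels of its genes, it differed from the constitutive cytosolic group by -0.37 in log2(TPM + 1). In the single libraries the difference was -0.52, -0.38 and -0.37, and the SD of these values was 0.08. Pdia3, the disulfide isomerase that also serves the loading of MHC class I, led with 642, 616 and 591 TPM. Hspa5, the Hsp70 of the compartment known as BiP, had 457, 432 and 437 TPM. Calr, the soluble lectin chaperone, had 410, 426 and 403.5 TPM. These genes were as even across libraries as the housekeeping chaperones of the cytosol. Canx, the membrane-bound lectin partner of Calr, stood 2.78-fold lower at 149 ± 4.70 TPM. The other isomerases Pdia6 and Pdia4 stood at 146 ± 8.99 and 121 ± 3.33 TPM, and Hsp90b1, the Hsp90 of the compartment, at 272 ± 17.5 TPM. Herpud1, which serves degradation of misfolded proteins, stood at 103 ± 2.01 TPM, and Dnajb11, a J-domain partner of BiP, at 99.4 ± 3.51 TPM. Dnajc3, which restrains Perk, stood at 57.8 ± 3.40 TPM. Dnajb9, another J-domain partner of BiP and a target of Xbp1, was the lowest of the group at 12.2 ± 2.17 TPM, 8.12-fold below Dnajb11. The 6 genes with a stress element in the window spanned 57.8 to 442 TPM, and the other genes of the group spanned 12.2 to 616 TPM, so the ranges overlapped.

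The mitochondrial chaperones were even. Hspd1 stood at 118 ± 1.68 TPM and Hspe1 at 130 ± 8.40 TPM, and the genes that share a heat shock element differed by -0.14 ± 0.08 in log2(TPM + 1), a difference for which the lower and upper bounds that the authors give for TPM overlapped in at least 1 library. In every library these bounds enclosed the posterior mean TPM of all 49 members, but the TPM given here for only 10 or 11 of them. Hspa9, the mitochondrial Hsp70, stood at 109 ± 11.8 TPM. Hspd1 and Hspe1 overlap at their ends on opposite strands and whether counting used strand is not stated, so reads in the overlap cannot be told apart.

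The regulators are the transcription factors of these responses. Hsf1 stood at 100.4, 100.0 and 88.1 TPM, and Hsf2, a related heat shock factor, at 3.81, 4.81 and 3.76 TPM, a difference of 23.3-fold. Xbp1, the factor that the sensor Ire1 activates by splicing, stood at 125, 139 and 125 TPM, and Atf6, the membrane-bound sensor, at 8.0, 7.18 and 9.28 TPM. Atf4, whose translation rises when Perk acts, stood at 86.3 ± 2.31 TPM, above its target Ddit3 at 47.1 ± 6.04 TPM. The groups of library values did not overlap in any of these 3 pairs.

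**Figure D2:**
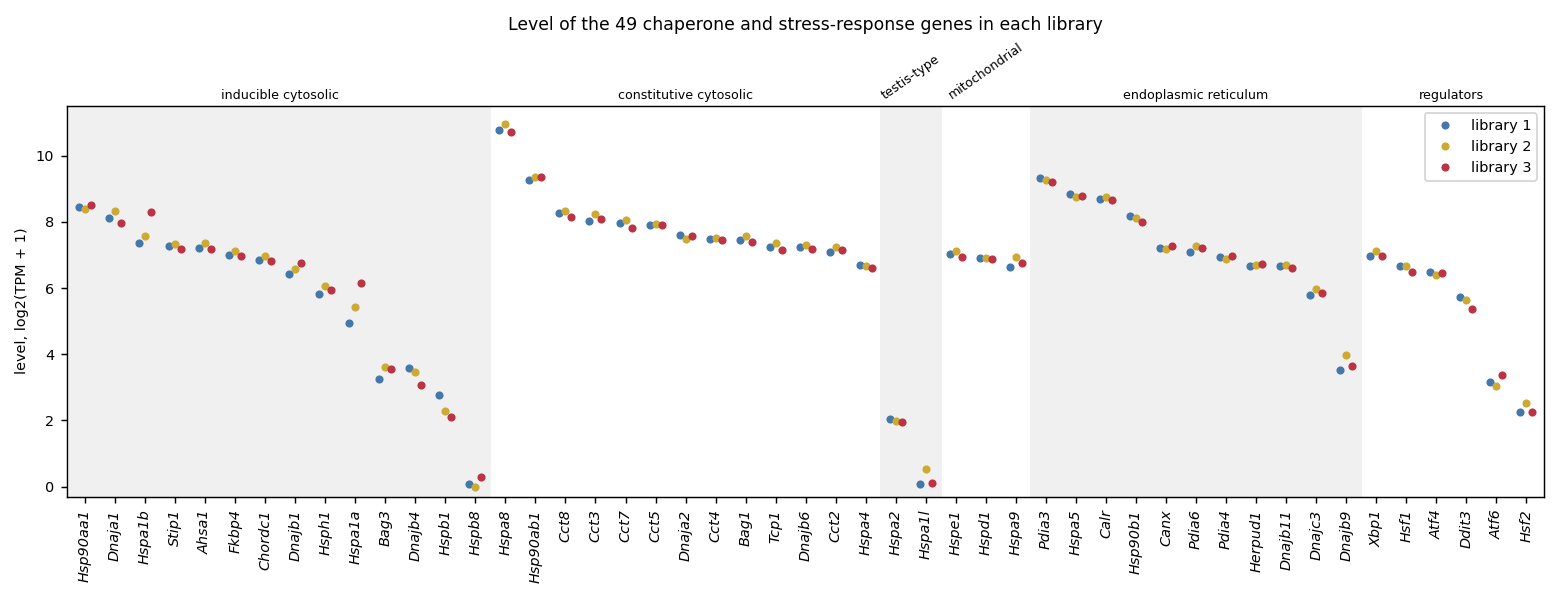
Level of each of the 49 members as log2(TPM + 1), 1 point per library, ordered within role by mean level. Hspa8 stands alone at the top, the 3 points of most genes nearly coincide, and the points of Hspa1a and Hspa1b lie apart, with library 3 the highest at 69.7 and 314 TPM.

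Of 24 gene pairs compared by level, 22 were apart, meaning that 1 gene was the higher in every library, the library ranges did not overlap and neither did the authors' bounds in any library. The pairs not apart were Hspd1 with Hspe1 and Cct2 with Tcp1. An exact permutation test that flips the signs of the 3 differences (two-sided) cannot go below p = 0.25, and all 24 pairs gave this smallest value. Within the Hsp70 family, Hspa8 stood 4.09-fold above the endoplasmic reticulum form Hspa5, 16.6-fold above the mitochondrial Hspa9 and 38.2-fold above Hspa1a. In the deposited M4 counts per kilobase, described below, the direction turned for Hspa8 against Hspa5 and Hspa9, with log2 differences of -1.75 and -0.90, and against Hspa4, with -1.24. Hspa1b stood 4.71-fold above Hspa1a. Within the Hsp90 family, Hsp90ab1 stood 1.83-fold above Hsp90aa1 and 2.35-fold above Hsp90b1. Among exchange factors, the constitutive member stood higher, with Bag1 17.3-fold above Bag3 and Hspa4 1.65-fold above Hsph1. Among J-domain proteins, Dnajb1, the main heat-inducible partner of Hsp70, stood 10.1-fold above Dnajb4, and Dnajb6 stood 1.56-fold above Dnajb1, a difference that changed sign without division by length (log2 difference of Dnajb1 minus Dnajb6 -0.65 in TPM, 0.07 in depth-scaled counts and 1.77 in the M4 counts per kilobase).

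The libraries differed by more than counting noise for most genes. The 3 scaled counts of each gene were compared with Poisson noise by a chi-square test (Benjamini-Hochberg adjusted p under 0.05). Of the 18253 genes whose counts averaged 10 or more, 77.2% were called. Of the 6731 genes whose counts averaged 1000 or more, called well counted below, 84.8% were called. Of the members, 47 were tested and 41 called, and of the 40 well counted members 36 were called, a share near the background. The highest library exceeded the lowest by a ratio of 1.5 or more in 42.9% of all genes tested and in 3.33% of the well counted genes. Among members this ratio was reached by Hspa1a, Hspa1b and Hspb1. Hspa1a and Hspa1b are 2 of the 40 well counted members, again near the background share. The median ratio was 1.11 over the members tested, 1.26 over the inducible cytosolic group and 1.09 over the constitutive group, against 1.37 over all genes tested. Among well counted genes it was 1.10 over the members, 1.16 over the inducible group and 1.09 over the constitutive group, against 1.15 over all of them.

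Hspa1a, the inducible Hsp70, had 29.7, 42.5 and 69.7 TPM. Its expected counts were 1914, 2406 and 4900. Library 3 was highest and library 1 lowest, and each pair of libraries differed by adjusted p. In scaled counts, library 3 exceeded the mean of libraries 1 and 2 by 2.11-fold (95% counting interval 2.03 to 2.20). Its ratio of 2.56 between libraries was reached by 18 well counted genes, itself included. Hspa1b, its neighbour with the same promoter sequence but for 3 bases, had 164, 190 and 314 TPM. Its expected counts were 9968, 10183 and 20803. In scaled counts, at 9491, 11237 and 19798, library 1 was again the lowest and library 3 the highest, by 1.92-fold over the mean of the others (1.89 to 1.96). The copies keep 1716 of the windows of 50 bases in common, which is 58.8% of those of Hspa1a and 62.3% of those of Hspa1b, so the split of reads between them is uncertain. Their sum was 194, 233 and 383 TPM. In summed counts, which do not depend on the split between the copies, library 3 was higher by 1.96-fold (1.92 to 1.99). Each copy shares windows with 4 genes, the other copy included, so the sum may still rest on division of reads with other genes. The share of Hspa1a in the sum was 15.3%, 18.2% and 18.2%. Hspa8 exceeded the sum by 9.07-fold and 8.55-fold in libraries 1 and 2 and by 4.37-fold in library 3.

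Other heat shock genes did not follow to this extent. Dnajb1 had 85.1, 95 and 107 TPM, and library 3 was higher by 1.28-fold (1.24 to 1.32), with an adjusted p of 1.75e-67 over the libraries by the chi-square test with edgeR scaling. Hsp90aa1 was higher there by 1.06-fold (1.04 to 1.09). Bag3 was higher by 1.19-fold (1.08 to 1.31), its difference lying between library 1 and the others. Hsph1, whose window holds the longer heat shock element, was at 0.979-fold (0.943 to 1.02), and Dnaja1 at 0.930-fold (0.907 to 0.953). For Dnaja1, and likewise for Chordc1 at 0.94-fold (0.910 to 0.971), library 2 was above both others by adjusted p and libraries 1 and 3 did not separate. Dnajb4 was below both others in library 3, at 0.751-fold (0.673 to 0.837). Hspb1, with 5.81, 3.91 and 3.33 TPM on 111, 64.8 and 69.4 counts, was highest in library 1. The highest library thus differed from gene to gene among these heat shock genes.

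Counted by direction, 5 of the 13 inducible cytosolic members tested were highest in library 3, against 30.9% of all genes. Without library 2, 11 of 13 were higher in library 3 than in library 1, against 50.8% of all genes tested so. Of these 11, 7 differed by adjusted p and 3 were higher by under 2%. Among well counted genes, 14.2% were above both other libraries in library 3 by adjusted p, and 10.3% were below both. Of the 40 well counted members, 12 were above both and none below. They were Hspa1a, Hspa1b, Hsp90aa1 and Dnajb1 of the inducible group, Dnaja2 and Cct5 of the constitutive group, Hspa5, Pdia4, Canx and Herpud1 of the endoplasmic reticulum group, and the regulators Atf4 and Atf6. Apart from Hspa1a and Hspa1b, these differences were small, with Atf6 the largest at 1.32-fold (1.24 to 1.41), Canx at 1.15-fold (1.12 to 1.17) and Hspa5 at 1.04-fold (1.03 to 1.06). Below both others in library 1 were 23.8% of such genes and 16 members, and above both others in library 2 were 27.4% of such genes and 12 members. Over all 47 members tested, 12 were above both others in library 3 and 2 below, against 11.8% and 9.49% of all genes tested. The 2 were Dnajb4 and Ddit3, neither of them well counted, with Ddit3 at 0.861-fold (0.792 to 0.935).

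**Figure D3:**
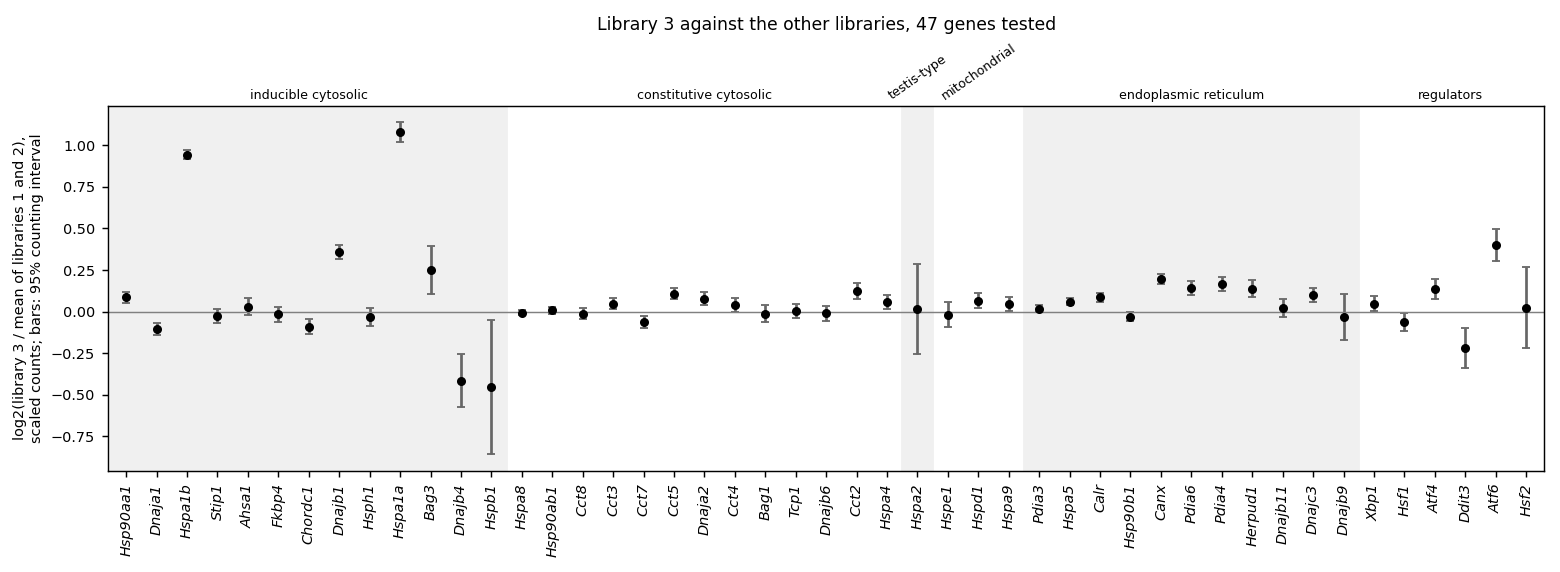
Log2 of library 3 over the mean of libraries 1 and 2 in scaled counts, for the 47 members tested, with 95% counting intervals, ordered as in the plot of levels. Hspa1a and Hspa1b lie near 1, Dnajb1 and Atf6 follow well below, and most other members lie close to 0.

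What else differed in library 3 is given beside this. The salivary gland markers were high in library 3, as above, and scaling by counts without them left the folds of Hspa1a and Hspa1b at 2.09 and 1.90. Among 8 immediate early genes, which respond within minutes to stimulation or handling of cells, 4 were above both other libraries in library 3. The share was 11.8% over all genes tested and 14.2% over the well counted genes. Of the same list, 2 genes were above both others in library 1 and 1 in library 2. In library 2 the share over the well counted genes was 27.4%. The list summed to 1223, 1186 and 1407 TPM. Its highest genes were Junb, with 463, 506 and 585 TPM, and Dusp1, with 272, 217 and 299 TPM. Fos, named after its values were seen, had 24.1, 30.3 and 49.5 TPM, an order of libraries like that of Hspa1a, while Egr1, also named after its values were seen, was highest in library 1 with 100 TPM. The part of these genes or of the gland transcripts in the Hspa1a and Hspa1b difference was not tested.

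The second set of deposited gene counts, whole numbers made against the older annotation M4, gave a different picture of the same genes. There Hspa1a had 145, 174 and 269 counts and Hspa1b 568, 570 and 671, and library 3 exceeded the others by 1.60-fold (1.36 to 1.88) and 1.12-fold (1.02 to 1.23). For Hspa8 these tables hold only 650, 598 and 793 counts, which is 1.22% of its expected counts, and per kilobase it stood below Hspa5 rather than above it. Over the 6544 genes found in both tables and well counted there, the median was 39.2%. The share fell with expression, from 46.5% at mean counts of 1000 to 2000 to 5.45% at 20000 and more.

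Members whose sequence is shared with other genes were among those with the lowest shares. For each member, the windows of 50 bases in its leading transcript were looked up in the transcripts of all other genes. Of the 40 well counted members, 19 shared no window, and 27 shared under 5% of windows. Over those 27, the whole-number counts were 11.6% to 58.3% of the expected counts, with Pdia3, Calr, Hsp90ab1 and Hspa5, the most abundant of them, at the low end. The 4 members that shared over 50% of windows had 1.22% to 8.58%. They were Hspa8, with 86.3% of windows shared and 12 pseudogenes among 13 sharing genes, Hspa1a, Hspa1b and Hsp90aa1, which shared 65.6% with 4 pseudogenes. Dnajb6 shared 41.9% with 8 pseudogenes and had 4.67%, and Dnaja1 shared 30.6% and had 3.75%. Hspd1 and Hspe1 shared 44.8% each and had 15.5% and 9.55%. Across the 40 members, the Spearman correlation of the shares was -0.58, which is across genes of the same libraries and is given as a description. The expected counts of these genes rest on the authors' division of reads among copies, which could not be checked from the tables.

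**Figure D4:**
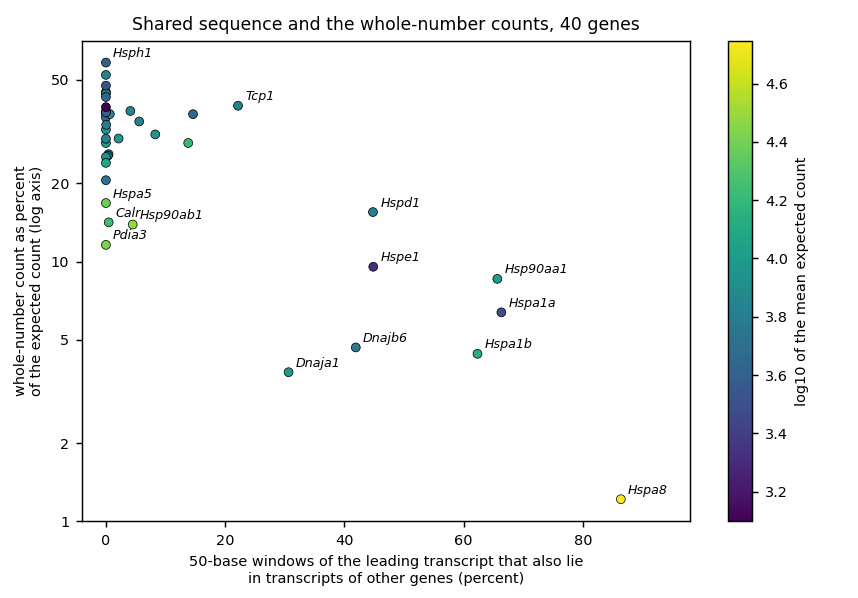
Whole-number count as percent of the expected count (log axis) against the percent of 50-base windows of the leading transcript found in other genes, for the 40 well counted members, coloured by expression. Hspa8 lies at 86.3% shared and 1.22%, and members with no shared window lie between 11.6% and 58.3%.

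Transcript shares were read for 8 members with several annotated forms, as the percent of the gene's TPM. Xbp1-201 took 83.2%, 77.5% and 80.8% of Xbp1, and a form with a retained intron took 10.3 ± 0.214%. The short intron that Ire1 removes from Xbp1 mRNA is not annotated, since the shortest intron over its 4 annotated transcripts is 300 bases, so the active spliced form cannot be read from these tables. Bag1-201 took 91.2 ± 2.43% and Atf4-201 93.4 ± 2.37%. Dnajb6 was divided between Dnajb6-203 at 58.1 ± 1.29% and Dnajb6-201 at 25.9 ± 1.96%. These shares moved little between libraries.

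The heat shock factors were less uniform. Hsf1-205, the leading of 16 transcripts, took 43.9%, 57.0% and 47%, all protein-coding forms together 66.5 ± 1.42%, and forms with a retained intron 23.2 ± 2.45%. For Hsf2, forms with a retained intron took 38.7%, 63.6% and 44.1%, against 31.4 ± 3.02% for Hsf2-201, on 201, 189 and 213 counts for the gene. Hsf2 is thus low, and much of what was assigned to it was not a coding form. Hspa8 had 59.9 ± 1.00% of its TPM in coding forms, though these took 83.1% of its counts, because short non-coding forms weigh more after division by length. Hsp90ab1-201 took 86.5%, 90.5% and 76.2%, and retained-intron forms of Hsp90ab1 took 10.1%, 7.73% and 19.8%, highest in library 3. The same order of libraries held for retained-intron forms of Hspa8, with 17.8%, 17.2% and 21.6%. These are shares of TPM. Of the counts over all libraries, retained-intron forms took only 4.11% for Hsp90ab1 and 7.94% for Hspa8, and Hsp90ab1-201 took 95.5%.

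**Figure D5:**
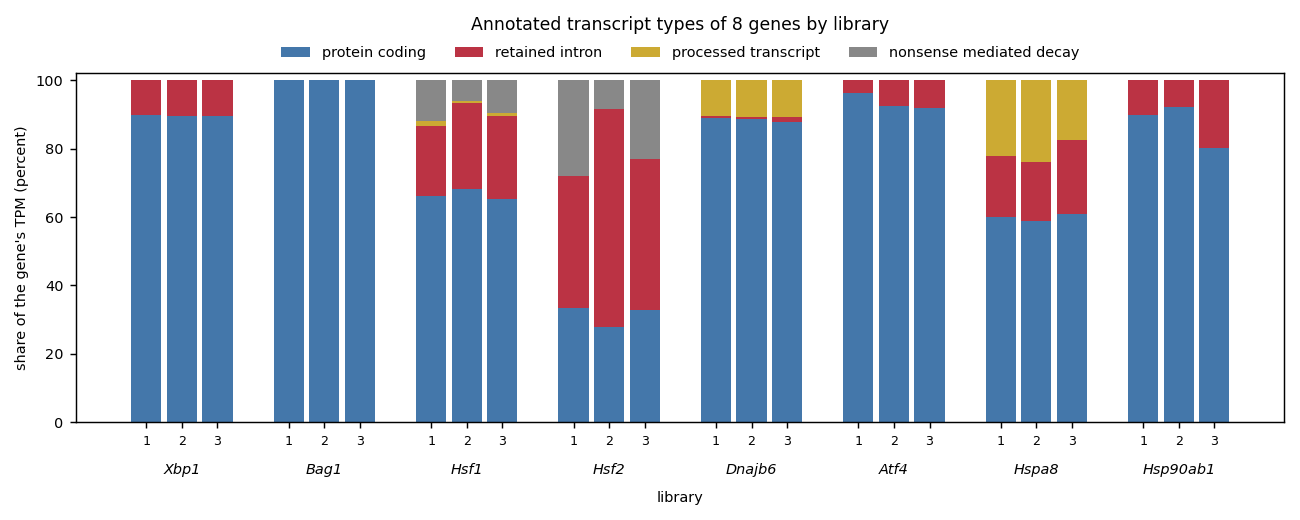
Percent of each gene's TPM in annotated transcript types, 1 bar per library, for 8 members. Bag1 is all protein coding, Hsf2 has its largest part in retained-intron forms, and the retained-intron part of Hsp90ab1 is 19.8% in library 3 against 10.1% and 7.73%.

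Beyond the members, 62 further genes of the same pathways were described from 4 lists. Of these, 54 were detected and 58 tested, and 49 were called different between libraries, against 77.2% of all genes tested. In library 3, 12 were above both others and 6 below both others, against 11.8% and 9.49% of all genes tested. Among cytosolic co-chaperones, the J-domain protein Dnajc7 stood highest at 487 ± 25.6 TPM, followed by the kinase co-chaperone Cdc37 at 238.5 ± 10.6 TPM, and Cryab, a small heat shock protein of lens and muscle, was lowest at 0.287 ± 0.272 TPM. Bag2 had 28, 21 and 70.1 counts, the largest ratio of that list, with library 3 higher by 2.66-fold (1.85 to 3.83). In the mitochondrion, the protease subunit Clpp, the Hsp90 paralogue Trap1 and the J-domain protein Dnaja3 stood at 67.7 ± 8.38, 51.9 ± 4.48 and 44.3 ± 5.01 TPM, and the exchange factors Grpel1 and Grpel2 at 27.2 ± 1.47 and 12.8 ± 1.96 TPM. In the endoplasmic reticulum, the prolyl isomerase Ppib led at 305 ± 23.5 TPM, before the disulfide isomerase P4hb at 204 ± 3.42 TPM and the translocon subunit Sec61b at 170.0 ± 15.0 TPM. The collagen chaperone Serpinh1 and the isomerase Pdia5 were below 1 TPM. Hyou1, an Hsp110-type partner of BiP, had 10.7, 15.3 and 11.8 TPM, and the oxidase Ero1lb had 13.0, 8.91 and 13.4 TPM.

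The stress sensors and responders were low, and 7 of 15 tested reached a ratio of 1.5 or more between libraries, a share near the 42.9% of all genes tested. Their median was 7.23 TPM. Creb3 and the protease Mbtps1, which cuts Atf6, stood at 66.9 ± 9.46 and 66.1 ± 5.16 TPM. Ppp1r15a, which restores translation after Perk has acted, had 42.9, 44.0 and 75.0 TPM, with library 3 higher by 1.92-fold (1.84 to 2.02). The transcription factors Atf5 and Atf3 and the enzyme Chac1 were scarce, with 12.2, 16 and 4.3 counts for Atf5, 12, 49 and 1 counts for Atf3 and 14, 0 and 9 counts for Chac1. Eif2ak3, which encodes Perk and was named after its values were seen, had 435.5, 376 and 852 counts, and library 3 was higher by 1.96-fold (1.78 to 2.15). Its levels were 6.69, 5.16 and 8.25 TPM, a smaller difference than in counts. Ern1, which encodes Ire1 and was also named after its values were seen, went the other way. It had 6.30, 5.33 and 5.09 TPM on 683, 491 and 407 counts, and in scaled counts library 3 was at 0.65-fold (0.58 to 0.72). In TPM the difference of Ern1 was again smaller than in counts.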

How the data were processed

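Polyadenylated RNA of 3 libraries of 1 biosample was analysed from deposited gene and transcript tables. Per the file headers, the authors' tables on GENCODE M21 (mm10) hold expected counts, which are reads shared out among genes, posterior mean counts, TPM with lower and upper bounds (a signal scale whose confidence level the deposited tables do not state), FPKM, and the percent of a gene's TPM per transcript. A further deposited table holds whole-number counts on GENCODE M4. The aligner, the counting program, strand use and duplicate handling are not given in the sources at hand.

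Rows that name no gene (0.170%, 0.170% and 0.218% of expected counts) were left out. Of symbols on several identifiers, which touched 1 member, the identifier with the highest mean count was used. Expected counts were rounded and scaled with edgeR's TMM factors (edgeR 4.0.16, R 4.3.3). Genes averaging 10 or more counts were compared between libraries by chi-square against Poisson noise, p-values adjusted over all genes by Benjamini-Hochberg, and pairs of libraries likewise. The chi-square test was used because 1 group allows no contrast of conditions. It was tested on counts simulated with Poisson noise, which is the noise that it assumes. That trial therefore cannot show how the test behaves under the wider spread between these libraries. The p-values measure only the spread between these libraries, which the labels call technical. Intervals cover counting error only and leave out error in the division of reads among genes. Molecular identifiers were not used as far as the tables show, so duplicate reads could make the intervals too narrow. Levels were compared as log2(TPM + 1). RefSeq promoter windows and M21 transcripts came from reference tables. Python 3.11.15, numpy 2.4.6, pandas 2.3.3, scipy 1.17.1 and matplotlib 3.10.9 were used.

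The members, roles, gene pairs and lists were chosen with earlier results of these data known. Named are all members, the 3 highest and 2 lowest genes of each pathway list and the 2 with the largest ratio between libraries, and the 2 highest genes of the marker lists that bear on a result. Other genes of the lists are said to have been named after their values were seen, apart from Foxp3, which is named because it defines the lineage. Alternatives were DESeq2 1.42.0 size factors, total counts, posterior mean counts, M4 counts, other filters and pseudocounts, other units and leaving out each library. Scaling without gland markers was added after the data had been seen.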

Additional observations from a re-analysis of the deposited data

How the results depend on the processing

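The members called different between libraries numbered 41 in the main analysis, 37 to 42 under other scalings, posterior mean counts and no filter on counts, and 36 of 40 at a mean count of at least 1000. In the M4 counts there were 22, where fewer counts stand behind each gene, and with 1 library left out 30 to 33. Members with a ratio of at least 1.5 numbered 3, and 1 to 3 with a library left out, the lowest without library 3. Inducible members highest in library 3 numbered 5 of 13, and 5 to 11 without library 1 or 2. The inducible minus constitutive difference of -0.83 was -0.69 over detected members, -1.95 in the M4 counts per kilobase, and -0.89 to -0.76 with a library left out. The endoplasmic reticulum difference of -0.37 stayed within its spread under every alternative run. Pairs apart numbered 22, and 22 to 24 under the alternatives. In the M4 counts per kilobase, 6 of the 22 pairs that were apart reversed: Hspa8 minus Hspa5 to -1.75, Hspa8 minus Hspa9 to -0.90, Hspa8 minus Hspa4 to -1.24, Hsp90b1 minus Hspa5 to 0.06, Dnaja1 minus Dnaja2 to -2.14 and Dnajb1 minus Dnajb6 to 1.77. Of the pairs not apart, Hspd1 minus Hspe1 went from -0.14 to 0.54 and Cct2 minus Tcp1 from -0.09 to 0.08. Without division by length, Dnajb1 minus Dnajb6 was 0.07 and Hspd1 minus Hspe1 was 1.5. The cause was not tested. With total counts, the library 3 fold of Hsp90aa1 was 1.02 (0.993 to 1.04). Leading transcripts above 50% numbered 6 of 8, and 6 to 7 under the alternatives. No paired analysis was possible because the libraries form 1 group.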
